A study of Oryza sativa with 24 samples.

Results

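A group of 175 genes whose mean level was higher at each successive stage of panicle development was described in rice, out of 36099 gene identifiers counted. The members were chosen on measured values. Counts were scaled to CPM (a gene's count divided by the total of its library and multiplied by 1000000), and the mean CPM was taken over the libraries of each stage. A gene entered when its stage 5 mean was at least 5 CPM and when each later stage mean was at least 1.2 and under 2 times the one before. All genes that met these limits were taken, since they were fewer than the 200 allowed. The rise itself is therefore a description of how the genes were chosen, and no test is given for it.

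The plants were of the indica variety IR64, either edited in tps2, tps3 and tps6 together (the triple mutant) or wild type, and both were grown in chambers under 1 regime. Young panicle tissue was collected at stage 5, when pollen mother cells form, stage 6, when they pass through meiosis, stage 7, when pollen fills, and stage 8, when pollen matures. The labels give 3 replicates per genotype and stage, named as biological replicates in the design text, and do not say how many independently edited lines they came from. Of the 24 columns, 3 mutant columns (replicate 3 of stage 6 and replicates 2 and 3 of stage 7) held the same values in every row as the wild-type columns of the same number. Each such pair was entered once in the stage means, as a library of unresolved genotype, and in no comparison of genotypes. This left 21 libraries, 18 of them of resolved genotype, with 3 mutant and 3 wild-type libraries at stages 5 and 8, 2 and 2 at stage 6, and 1 and 1 at stage 7. Total counts per library ran from 11398861 to 15860931.

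The young panicle holds anthers at successive steps of pollen formation among the other floral organs. As the anther develops, a nutritive cell layer called the tapetum feeds the developing pollen and later degrades, and maturing pollen stores starch made from imported sucrose. Trehalose 6-phosphate is a sugar signal that in Arabidopsis reports sucrose supply. It is made by trehalose phosphate synthases, and the class II members of this family, to which the title of the series assigns the edited genes, mostly lack shown enzyme activity and are regarded as regulators. In a whole panicle, fewer cells of a type and less RNA per cell cannot be told apart. The deposited identifiers matched 0 of the 39387 genes in the reference table used here, which is of another rice assembly. The members are therefore given by identifier and without a function, the edited genes were not looked up, and no marker gene could be used to check the tissue.

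Through the 4 stages the members came to take a larger share of the sequenced RNA. Their summed counts made up 0.748% of a library at stage 5, 1.01% at stage 6, 1.58% at stage 7 and 2.26% at stage 8, as means over the libraries of each stage. Over the members, the median of the stage means was 19.6 CPM at stage 5, 26.5 CPM at stage 6, 41.9 CPM at stage 7 and 63.3 CPM at stage 8. The ratio of the stage 8 to the stage 5 mean had a median of 2.99 and ran from 1.88 to 6.69, with quartiles of 2.48 and 3.81. Over the 15342 genes with a stage 5 mean of at least 5 CPM, the same ratio had a median of 0.868. The 10 members with the most counts at stage 8 held 42.7% of the members' stage 8 sum. CPM is not divided by gene length, so a higher CPM in one member than in another does not mean more transcripts. Members with a lower stage 5 mean tended to have a larger ratio, with a Spearman rho of -0.29 across the 175 genes. Genes are not independent replicates, and both quantities contain the stage 5 mean.

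**Figure D1:**
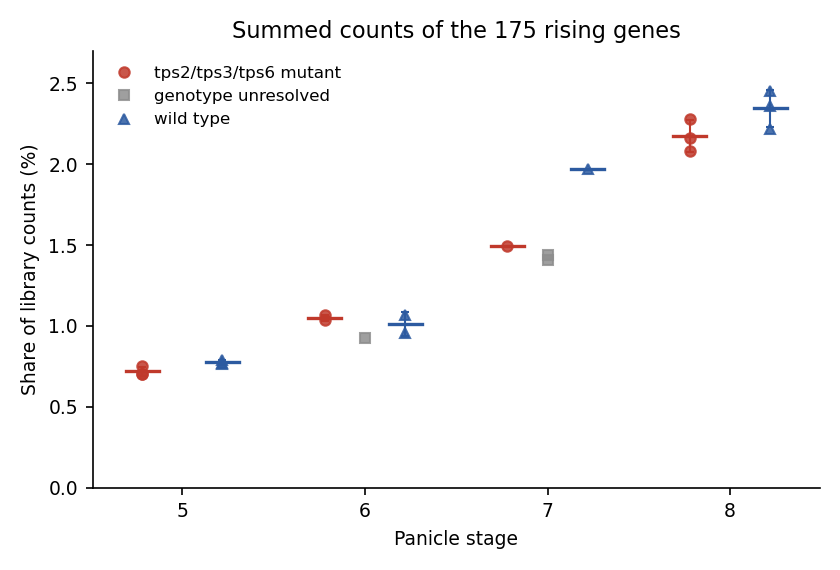
Share of each library's counts that fell on the 175 genes, in percent, against stage. Points are libraries (circles mutant, squares unresolved genotype, triangles wild type), bars are group means, whiskers are SD where a group has more than 1 library. Every library of a later stage stands above every library of the stage before, and the wild-type stage 7 library (1.97%) stands apart from the 3 other stage 7 libraries (1.41% to 1.49%).

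The steps were of unequal size. From stage 5 to 6 the median ratio over the members was 1.34, from stage 6 to 7 it was 1.53 and from stage 7 to 8 it was 1.39. The largest of a gene's steps was that from stage 6 to 7 in 93 members, from stage 7 to 8 in 49 and from stage 5 to 6 in 33. A gene's largest step exceeded its smallest by a median factor of 1.23, and in 27 members by a factor under 1.1. The limits of the rule cut through a continuous range. The smallest step of any member was 1.201 and the nearest gene outside had 1.199, and the largest step of any member was 1.998 against 2.0003 in the nearest gene outside. The lowest stage 5 mean of a member was 5.04 CPM, against 4.93 CPM in the nearest gene outside. A further 189 genes met the lower limits with at least 1 step of 2 or more, and 116 met the step limits with a stage 5 mean under 5 CPM.

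The 4 members named for the rise were the pair with the highest stage 8 to stage 5 ratios, the one with the highest mean CPM and the one with the most even steps. OsIR64_02g0026840 had the highest ratio, 6.69. At stage 5 it stood at 9.13, 11.6 and 12.7 CPM in the mutant and at 11.3, 17.1 and 8.73 CPM in wild type. At stage 8 it stood at 83.0, 84.6 and 73.8 CPM in the mutant and at 71.5, 73.4 and 86.4 CPM in wild type. Between these, its stage 6 libraries lay at 26.3 and 21.9 CPM in the mutant, 17.2 CPM in the unresolved library and 16 and 23.6 CPM in wild type, so that the lowest stage 6 value was below the highest stage 5 value. The stage 7 libraries of this gene lay at 33.7 CPM in the mutant, 38.5 and 36.0 CPM in the unresolved ones and 56.4 CPM in wild type, all above stage 6 and below stage 8.

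OsIR64_05g0021190 had the next highest ratio, 5.64. Its stage means in the mutant were 10.8 ± 2.6 CPM (SD, n = 3) at stage 5, 17.9 ± 0.90 CPM (SD, n = 2) at stage 6, 31.4 CPM in the lone stage 7 library and 56.6 ± 9.28 CPM (SD, n = 3) at stage 8. In wild type they were 10.0 ± 2.21 CPM (SD, n = 3), 15.6 ± 3.69 CPM (SD, n = 2), 44.9 CPM in the lone stage 7 library and 60.9 ± 8.43 CPM (SD, n = 3). At stages 5, 6 and 8 the genotypes overlapped. At stage 7 the wild-type value lay above those of the mutant library and of both unresolved libraries (22.7 and 29.4 CPM).

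OsIR64_01g0014410 held the most counts of any member. It averaged 621 ± 22.4 CPM in the mutant and 660 ± 81.6 CPM in wild type at stage 5 (SD, n = 3 each), and 1996 ± 393 CPM in the mutant and 2396 ± 358 CPM in wild type at stage 8 (SD, n = 3 each). At stage 7 it stood at 1405 CPM in the mutant library, 1388 and 1319 CPM in the unresolved libraries and 1946 CPM in the wild-type library. The wild-type stage 7 value lies above that of mutant stage 8 replicate 1, at 1549 CPM, so the later 2 stages overlapped.

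OsIR64_01g0022840 had the most even steps, 1.78, 1.76 and 1.77. In the mutant it stood at 8.88, 8.86 and 5.83 CPM at stage 5, at 13.6 and 16.1 CPM at stage 6, at 32.2 CPM at stage 7 and at 58.2, 57.8 and 32.4 CPM at stage 8. In wild type it stood at 9.34, 9.99 and 9.51 CPM, at 15.3 and 19.2 CPM, at 30.9 CPM and at 50.3, 47.9 and 43.4 CPM at the same stages. The unresolved libraries had 13.4 CPM at stage 6 and 19.8 and 26.5 CPM at stage 7. No library of one stage overlapped with the next, although mutant stage 8 replicate 3, at 32.4 CPM, exceeded the mutant stage 7 library by less than 1 CPM.

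**Figure D2:**
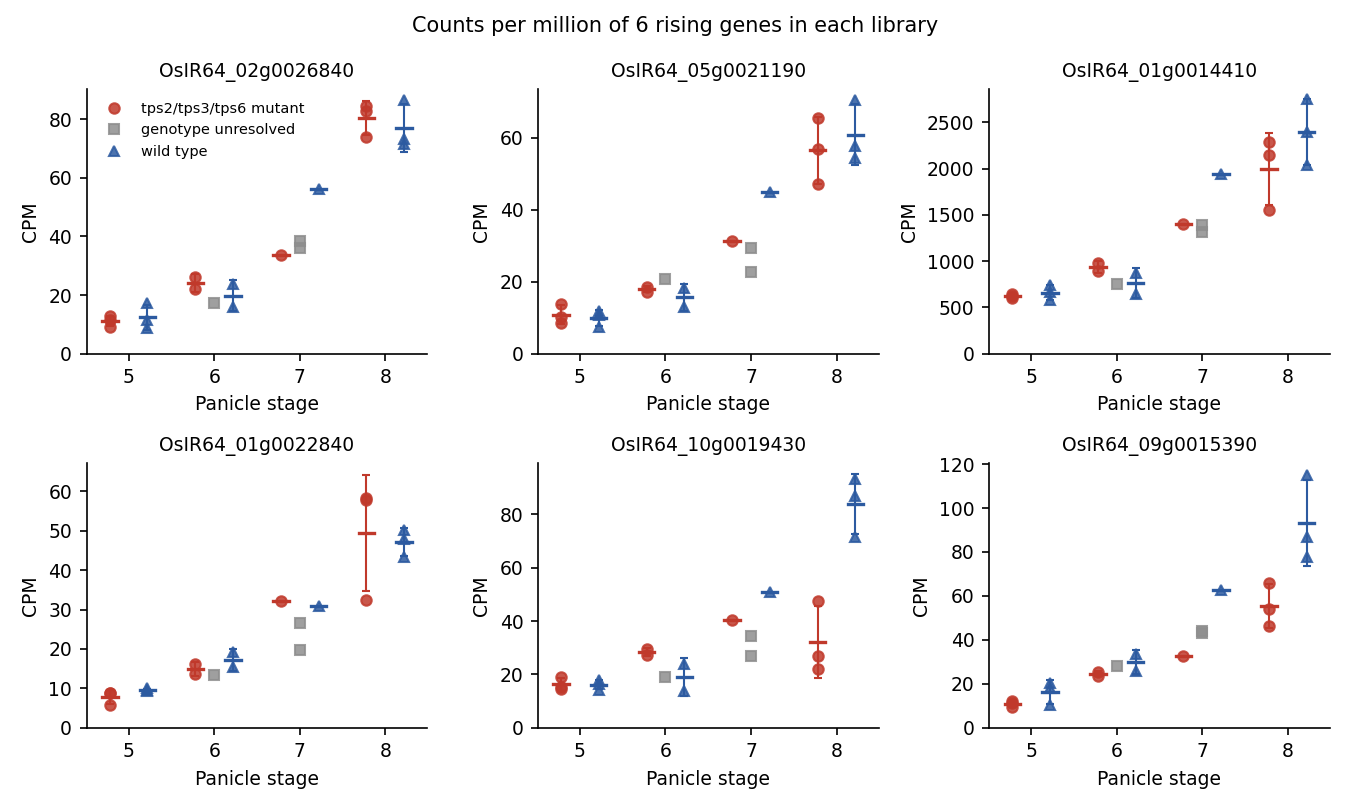
CPM in each of the 21 libraries against stage for the 4 members named for their rise and for 2 members named for a genotype difference (OsIR64_10g0019430 and OsIR64_09g0015390). Points are libraries, bars group means and whiskers SD where a group has more than 1 library; OsIR64_10g0019430 stood at 22.2 to 47.7 CPM in the mutant and 71.7 to 93.3 CPM in wild type at stage 8.

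Set against the spread between libraries, few members were stepwise at every stage. All stage 8 libraries lay above all stage 5 libraries in 155 of 175 members, against 13% of the 15342 genes with a stage 5 mean of at least 5 CPM. For adjacent stages the counts were 32 members from stage 5 to 6 (7.07% of those genes), 82 from stage 6 to 7 (8.73%) and 36 from stage 7 to 8 (9.99%). The rule used these contrasts, so nothing is read from the excess. Only 5 members were separated without overlap at all 3 steps: OsIR64_01g0035790, OsIR64_01g0022840, OsIR64_01g0012730, OsIR64_04g0028450 and OsIR64_06g0017680, singled out after their values were seen. Separation at all 3 steps was not counted over the 15342 genes, so the 5 are a description and no comparison with other genes. OsIR64_04g0028450, with many counts, ran at 276 to 366 CPM at stage 5, 456 to 562 CPM at stage 6, 589 to 911 CPM at stage 7 and 1083 to 1691 CPM at stage 8. OsIR64_06g0017680 ran at 17.6 to 24.8 CPM, 28.5 to 32.7 CPM, 41.7 to 49.9 CPM and 54.4 to 64.4 CPM at the same stages.

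At the other end stood members whose stage means hid a wide spread. In 24 members the coefficient of variation (SD over mean) of 3 replicates was over 50% in at least 1 of the 4 groups with 3 libraries, and in 22 of these that group included the mutant at stage 8. This was not counted over the 15342 genes, so a wide spread is not called particular to the members. OsIR64_06g0002250, also singled out after its values were seen, had the lowest count of any member, 4 counts in the unresolved stage 6 library. At stage 8 it stood at 9.47, 0.416 and 11.1 CPM in the mutant and at 23.9, 33.9 and 22.5 CPM in wild type, and at stage 5 wild-type replicates alone spanned 1.04 to 21.5 CPM. The median coefficient of variation over the members was 25.6% in the mutant and 14.9% in wild type at stage 8, and 11.2% in the mutant and 17.4% in wild type at stage 5. Over the 15342 genes the corresponding medians were 24.8%, 16.4%, 9.16% and 14.6%.

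The rule set the gradual course for means over both genotypes, and fewer members met its limits within each genotype. The rule used these same libraries, and the counts were not made over all genes. The values by genotype are therefore descriptions. In the mutant the median step over the members was 1.46 from stage 5 to 6, 1.33 from stage 6 to 7 and 1.49 from stage 7 to 8. In wild type it was 1.3, 1.88 and 1.21. The whole rise from stage 5 to stage 8 had a median of 2.94 in the mutant and 2.99 in wild type. In the mutant 153 members had all 3 steps above 1, and 67 met the limits of 1.2 and 2 at every step. In wild type 147 members had all 3 steps above 1, and 35 met the limits at every step. The step from stage 6 to 7 was the largest for 44 members in the mutant and for 150 in wild type, and 26 members were no higher at stage 8 than at stage 7 in wild type, against 5 in the mutant. Stage 7 had 1 library per genotype, so these steps have no replicate check.

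**Figure D3:**
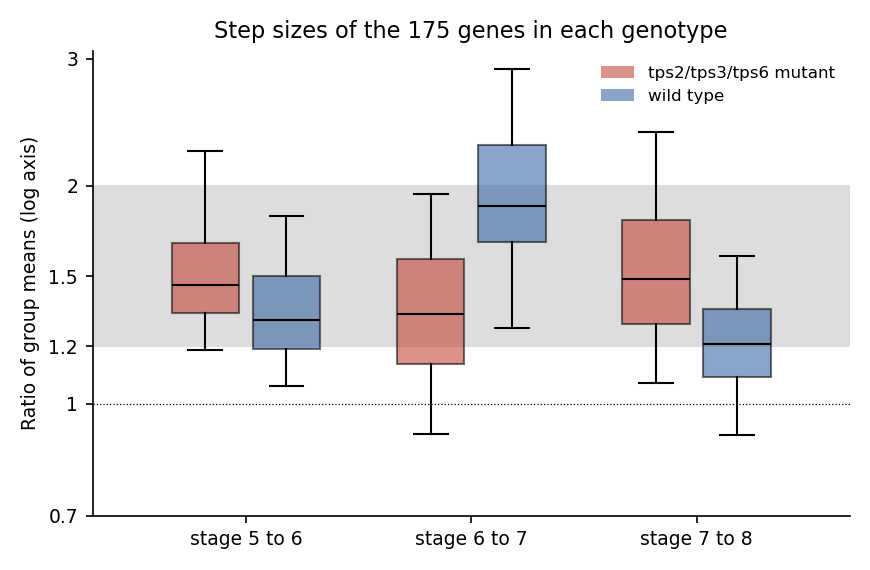
Ratio of adjacent group means over the 175 genes in the mutant and in wild type (log axis), from the libraries of resolved genotype. Boxes are quartiles with the median, whiskers reach the 5th and 95th percentiles, and the grey band is the range from 1.2 to 2 that the rule set for the means over both genotypes. The wild-type median is 1.88 from stage 6 to 7 and 1.21 from stage 7 to 8, against 1.33 and 1.49 in the mutant.

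At stage 7 the wild-type library stood apart from the others. The members' summed share was 1.49% in the mutant stage 7 library, 1.41% and 1.44% in the unresolved ones and 1.97% in the wild-type one. The wild-type library had a higher CPM than each of the other stage 7 libraries for 137 of 175 members, against 22.7% of the 15342 genes, and a lower CPM than each of them for 6 members, against 40.6%. The stage 7 mean that chose the members includes all 4 of these libraries. On a scale where the stage 5 mean of a gene is 0% and its stage 8 mean 100% (log2 CPM), the median member stood at 59.9% in the mutant stage 7 library, at 56.5% and 60.7% in the unresolved ones and at 84.7% in the wild-type one. The 15167 other genes with a stage 5 mean of at least 5 CPM placed the same libraries, projected on the axis between the stage 5 and 8 means of log2(CPM + 1), at 68.2%, 68.2%, 67.7% and 93.1%. The wild-type stage 7 library was thus nearer to stage 8 over the other genes as well, and its part in the members' values was not tested.

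At stage 6 the libraries also differed. The median member stood at 33.3% and 32.2% in the mutant libraries, 18% in the unresolved library, and 19.8% and 32.9% in the wild-type ones. The other genes placed these libraries at 27.8%, 29.1%, 17.7%, 18.9% and 36.9%. At stage 8 the median member stood at 91.1%, 98.3% and 96.3% in the mutant and at 101.5%, 105.2% and 98.3% in wild type, so the genotypes touched at that stage. The other genes placed the stage 8 libraries at 98.7%, 93.5% and 93.8% in the mutant and at 102.2%, 106.3% and 105.6% in wild type, without overlap. At stage 5 they placed them at -0.826%, -4.53% and -4.77% in the mutant and at -2.13%, 8.61% and 3.65% in wild type, with overlap.

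**Figure D4:**
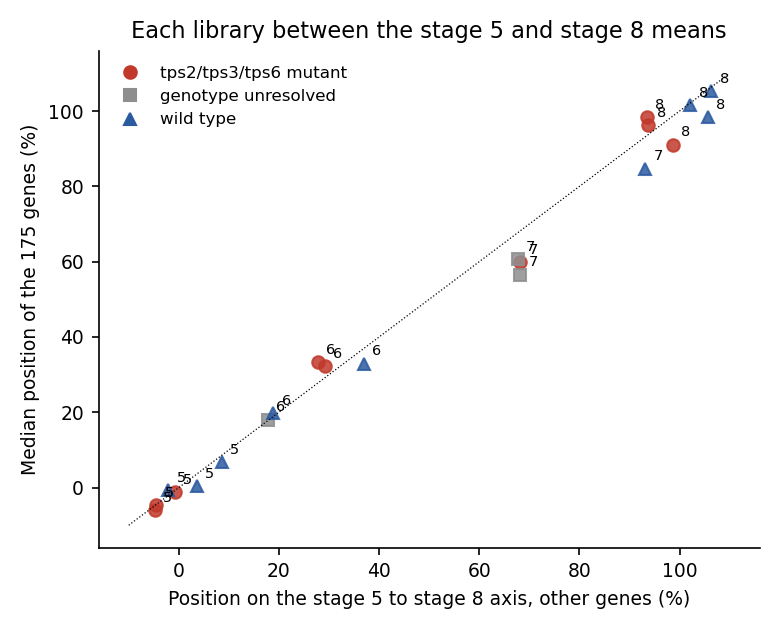
Median position of the 175 genes between their stage 5 mean (0%) and stage 8 mean (100%) in each library, against the position of the same library on the stage axis of the 15167 other genes. Numbers beside points are stages, the dotted line marks equal positions. The wild-type stage 7 library stands at 84.7% for the members and 93.1% for the other genes, away from the 3 other stage 7 libraries at 56.5% to 60.7% and 67.7% to 68.2%.

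At stage 8 the order of replicates was counted over the members, beside the same over the 15342 genes. Among the mutant libraries, replicate 1 had the lowest CPM in 48 members (27.4% of those genes), replicate 2 in 62 (40.3%) and replicate 3 in 65 (32.1%). Among the wild-type libraries, replicate 1 was lowest in 44 members (22.2%), replicate 2 in 52 (43.9%) and replicate 3 in 79 (33.8%). Wild-type replicate 3 was the lowest for 45.1% of the members, the largest of these shares.

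The comparison of genotypes asked whether these genes differed between the triple mutant and wild type at a given stage. It is not independent of the rule, since the stage means that chose the members hold the same libraries, and counts and medians over the members are given as descriptions. At the step from stage 6 to 7, 115 members reached a ratio of 1.2 in the mutant and 171 did in wild type, and 44 of the 175 no longer passed with the wild-type stage 7 library left out of the stage means. All 175 members were among the 25483 genes kept by the low-count filter and tested with edgeR's quasi-likelihood test on the 18 libraries. No member passed a Benjamini-Hochberg adjusted p of 0.05 at any stage. The members' median log2 difference was -0.07 at stage 5, -0.01 at stage 6, -0.44 at stage 7 and -0.18 at stage 8, while the median of all genes tested lay between -0.01 and 0.00 at each stage. Without mutant stage 5 replicate 1 the stage 5 median was -0.12. At all 4 stages 43 members had a log2 difference below 0, against 9.42% of genes tested, and 4 had one above 0, against 8.11%. The positions of the libraries on the stage axis of the other genes moved with these differences, with lower means in the mutant at stages 5, 7 and 8, and their part was not tested. The rule picked 177 genes with the wild-type stage 7 library left out, 131 of them members. The other libraries compared here still entered the stage means. Over these 177 genes the median log2 difference was -0.41 at stage 7 and -0.23 at stage 8. Below 0 stood 148 and 139 of them, against 47.4% and 48.9% of genes tested, and nothing is read from these counts.

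**Figure D5:**
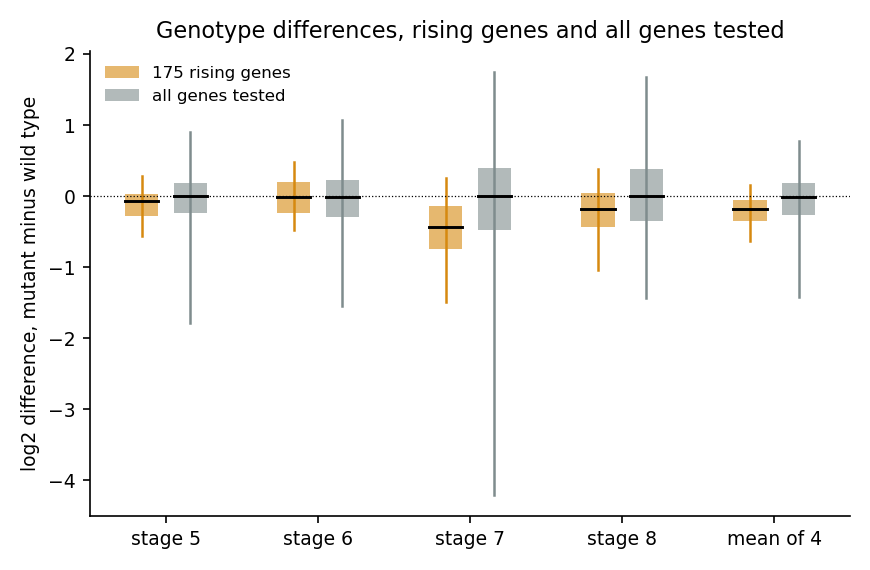
Fitted log2 difference of mutant minus wild type at each stage and for the mean of the 4 stages, for the 175 genes (orange) and for all 25483 genes tested (grey). Boxes are quartiles with the median, lines reach the 5th and 95th percentiles. The members' median is -0.44 at stage 7 and -0.18 at stage 8.

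At stage 5 the members took 0.752%, 0.702% and 0.705% of the counts in the mutant libraries and 0.773%, 0.790% and 0.765% in the wild-type ones, so the groups did not overlap. The log2 difference was below 0 in 115 members, against 48.7% of genes tested. All 3 mutant libraries lay below all 3 wild-type libraries in 24 members, against 6.89% of the 15342 genes, and above them in 3 members, against 10.5%. edgeR called 0 members (0% of genes tested), with 10 at an unadjusted p under 0.05 (4.42% of genes tested), and DESeq2 called 0 members (0.0746% of genes). The member with the smallest p among those lower in the mutant was OsIR64_01g0042780, at 9.05, 13.9 and 11.9 CPM in the mutant and 18.1, 24.6 and 23.3 CPM in wild type. Its groups did not overlap, and its log2 difference was -0.92 (SE 0.28, edgeR adjusted p = 0.999). Among those higher, OsIR64_12g0020370 stood at 44.0, 41.8 and 35.6 CPM in the mutant and 33.5, 28.6 and 23.2 CPM in wild type, a log2 difference of 0.51 (SE 0.21, edgeR adjusted p = 1). Its means at stage 6 were 48.1 CPM in the mutant and 47.3 CPM in wild type. At stage 7 it was lower in the mutant library, at 51.7 CPM against 145 CPM in the wild-type one. Its stage 8 means were 90.0 ± 28.8 CPM in the mutant and 115 ± 3.27 CPM in wild type (SD, n = 3 each).

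At stage 6 the log2 difference was below 0 in 89 members, against 50.6% of genes tested. The split depended on the wild-type library kept: 106 members were below 0 without replicate 1 (46.2% of genes, median -0.082) and 62 without replicate 2 (45.9%, median 0.15). edgeR called 0 members (0% of genes), with 4 at an unadjusted p under 0.05 (2.96%), and DESeq2 called 0 (0.0235%). OsIR64_01g0042780 again had the smallest p among members lower in the mutant, at 16.7 and 19.9 CPM in the mutant and 29.8 and 34.1 CPM in wild type (log2 difference -0.89, SE 0.33, edgeR adjusted p = 1). OsIR64_01g0006250 was at 28.6 and 35.2 CPM in the mutant and 20.0 and 22.8 CPM in wild type (log2 difference 0.49, SE 0.23, edgeR adjusted p = 1). Neither gene overlapped between the genotypes, and neither was called. OsIR64_01g0006250 was lower in the mutant at stage 7, at 33.7 CPM against 47.8 CPM in wild type. Its stage 8 means were 56.1 CPM in the mutant and 47.7 CPM in wild type.

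At stage 7, with 1 library per genotype and the spread taken from the other groups, 147 members had a log2 difference below 0, against 47.4% of genes tested. The wild-type library is 1 of the 4 behind the stage 7 mean that the rule used, so nothing is read from this count. edgeR called 0 members (0.00392% of genes), with 32 at an unadjusted p under 0.05 (7.39%), all 32 lower in the mutant. DESeq2 called 3 members (0.271%), all lower. OsIR64_03g0007410 had the smallest p, at 4.2 CPM in the mutant library and 25.5 CPM in the wild-type one, with 11.7 and 15.3 CPM in the unresolved libraries (log2 difference -2.61, SE 0.58, edgeR adjusted p = 0.29). Alternatives for this gene gave an adjusted p of 0.0088 (DESeq2) to 1 (all 24 columns). At stage 8 it did not separate the genotypes, at 12.6, 17.6 and 25.4 CPM in the mutant and 19.2, 16.2 and 19.5 CPM in wild type. In the other direction OsIR64_12g0009050 was at 21.2 CPM in the mutant and 12.6 CPM in wild type, with 15.3 and 15.7 CPM in the unresolved libraries (log2 difference 0.75, SE 0.42, edgeR adjusted p = 0.74).

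At stage 8 the log2 difference was below 0 in 126 members, against 48.9% of genes tested. All 3 mutant libraries lay below all 3 wild-type libraries in 19 members, against 4.79% of the 15342 genes, and above them in 8, against 11%. edgeR called 0 members (0.00785% of genes), with 35 at an unadjusted p under 0.05 (14%), 34 of them lower in the mutant. DESeq2 called 10 members (2.15%), all lower, and the fit of all 24 columns called 2 (0.4%), both lower. The count depended on mutant replicate 3, since without it edgeR called 26 members, 24 of them lower in the mutant, against 7.88% of genes tested. Of the 10 that DESeq2 called, 8 were among these 26.

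The member nearest to a call at stage 8 was OsIR64_10g0019430. It stood at 22.2, 27.0 and 47.7 CPM in the mutant and at 86.8, 93.3 and 71.7 CPM in wild type, without overlap (log2 difference -1.48, SE 0.26, edgeR adjusted p = 0.061). At stage 5 it was level, at 16.3 ± 2.34 CPM in the mutant and 16.2 ± 1.84 CPM in wild type (SD, n = 3 each). At stage 6 it stood at 29.5 and 27.3 CPM in the mutant and 24.0 and 13.9 CPM in wild type. These were higher in the mutant, without overlap. At stage 7 it stood at 40.4 CPM in the mutant, 26.8 and 34.4 CPM in the unresolved libraries and 50.8 CPM in wild type. Its mutant mean at stage 8, 32.3 ± 13.6 CPM (SD, n = 3), was no higher than the mutant stage 7 library, while the wild-type mean was 83.9 ± 11.1 CPM (SD, n = 3). The adjusted p was 0.00064 without mutant replicate 3, 0.00027 in DESeq2, 0.021 with all 24 columns and 0.58 with the stage 8 libraries alone. Those fits span its alternatives. OsIR64_03g0039200 had the smallest p among members higher in the mutant, at 44.1, 46.2 and 32.3 CPM in the mutant and 25.3, 25.7 and 28.6 CPM in wild type, without overlap (log2 difference 0.54, SE 0.24, edgeR adjusted p = 0.34).

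Averaged over the 4 stages, 149 of 175 members were lower in the mutant, against 51.7% of genes tested, with a median log2 difference of -0.18 and quartiles of -0.35 and -0.06. edgeR called 0 members (0.0549% of genes), with 50 at an unadjusted p under 0.05 (11.6%), 48 of them lower. DESeq2 called 9 (1.42%), and edgeR without mutant stage 8 replicate 3 called 12 (1.88%), all lower in both. Leaving out wild-type stage 5 replicate 1 gave 1 member (0.11%), and leaving out wild-type stage 6 replicate 1 gave 1 (0.208%). With stage 7 left out of the average, 125 members were lower (51.4% of genes), the median was -0.09, edgeR called 0 (0.0392%), 25 had an unadjusted p under 0.05 (11.4%), and DESeq2 called 3 (1.31%). Without mutant stage 8 replicate 3 this average gave 7 members (1.95%), and without wild-type stage 5 replicate 1 it gave 1 (0.196%). The members' median averaged difference was thus smaller without the lone stage 7 libraries, at -0.09 in place of -0.18.

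OsIR64_09g0015390 had the smallest p in the average over 4 stages. It stood at 12.3, 11.1 and 9.48 CPM in the mutant and 10.4, 18.3 and 20.6 CPM in wild type at stage 5, and at 23.7 and 25.4 CPM in the mutant and 25.9 and 33.7 CPM in wild type at stage 6. The mutant stage 7 library had 32.9 CPM, the unresolved ones 43.8 and 43.1 CPM, and the wild-type one 62.7 CPM. At stage 8 it stood at 53.9, 46.2 and 65.9 CPM in the mutant and 77.5, 87.0 and 115 CPM in wild type. The genotypes overlapped at stage 5 and were apart at stages 6, 7 and 8, with an averaged log2 difference of -0.68 (SE 0.15, edgeR adjusted p = 0.10). The adjusted p was 0.0053 in DESeq2, 0.020 without mutant stage 8 replicate 3 and 0.021 without wild-type stage 5 replicate 1, and 0.27 at the highest, without mutant stage 6 replicate 2. OsIR64_03g0037540, the other named member, had an averaged log2 difference of 0.30 (SE 0.12, edgeR adjusted p = 0.33), with 78.8, 76.0 and 67.7 CPM in the mutant and 61.8, 51.7 and 47.6 CPM in wild type at stage 8.

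The genotypes' steps were also set against each other, after the unequal steps had been seen. The rule used these steps in the means over both genotypes, so the counts and medians are descriptions and nothing is read from them. From stage 6 to 7 the mutant step was smaller in 144 members (47.9% of genes tested), with a median log2 difference of -0.46. edgeR called 0 (0% of genes), with 23 at an unadjusted p under 0.05 (6.39%), and DESeq2 called 0 (0.0157%). From stage 7 to 8 the mutant step was smaller in 44 members (49.7%), with a median log2 difference of 0.23. edgeR called 0 (0%), with 9 at an unadjusted p under 0.05 (6.46%), and DESeq2 called 0 (0.122%). The test of any change of the genotype difference with stage gave 0 members in edgeR (0%), with 16 at an unadjusted p under 0.05 (5.14%), 2 in DESeq2 (0.235%) and 4 without mutant stage 8 replicate 3 (0.455%). In the edgeR fit of 18 libraries, differences between stages in the genotype effect are therefore not shown for any single member. The few calls depended on the method and on that replicate.

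By their identifiers the members were spread over all 12 numbered groups of the table, a grouping taken from the digits before the g and not explained in the files. The most stood under 03g (29), 01g (27) and 06g (20). As a share of the genes with a stage 5 mean of at least 5 CPM under the same prefix, they ran from 0.265% under 11g (2 members) and 0.477% under 12g (4 members) to 1.67% under 10g and 1.68% under 06g, with 1.14% overall. In 1 case a pair of members stood on neighbouring rows.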

How the data were processed

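The authors deposited whole-number counts of reads per gene. STAR alignment to an IR64 genome and HTSeq-count on its high-confidence genes are stated in the series design text. The submitters' processing notes list Trimmomatic 0.39 and kallisto, the latter with no role given. The sources used here do not give strand setting, annotation version or treatment of reads shared by near-identical genes, so counts of paralogs and overlapping genes are uncertain.

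From the deposited counts, CPM was computed on plain column totals. Genotypes were compared with edgeR 4.0.16 in R 4.3.3 (TMM, filterByExpr on 8 groups, robust quasi-likelihood F-test, 25483 genes, 10 residual degrees of freedom), and p-values were adjusted by Benjamini-Hochberg over all genes tested. For the single stage 7 libraries this takes the spread of the replicated groups. SE was derived from the log2 difference and its F statistic. DESeq2 1.42.0 was an alternative. The procedure was tested on simulated counts. The members, gene lists and tests were chosen with earlier results of these data known. Named members were the highest ratios, the highest mean CPM and the most even steps for the rise, and the smallest p each way per genotype comparison, since edgeR called none in the fit of 18 libraries. Gene lists by symbol could not be applied, as no identifier was paired with a name. P-values measure the spread between these libraries only.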

Additional observations from a re-analysis of the deposited data

How the results depend on the processing

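Under other limits of the rule, the genes that passed numbered 469 with a minimum step of 1.1, 70 with 1.3, 49 with a maximum step of 1.5 and 287 with 3. Members that still passed numbered 70 with the minimum of 1.3, 49 with the maximum of 1.5, 116 with TMM-normalized CPM (of 180 genes) and 99 with the 18 libraries of resolved genotype (of 151). They numbered 90 with mutant columns alone (of 164), 35 with wild-type libraries of resolved genotype alone (of 100) and 106 with the genotypes weighted equally (of 129). Only 17 members passed both with mutant columns alone and with wild-type libraries alone. The mutant columns and the equal weighting counted the unresolved libraries as mutant. In the mutant libraries of resolved genotype, 67 members met the step limits. Leaving out 1 library gave 156 to 194 genes, 131 to 171 of them members, and 44 members passed whichever library was left out. TMM moved the median of the 15342 genes by -0.11 on the log2 scale from stage 7 to 8, and all 175 members kept every step above 1. The members' median stage 8 to stage 5 ratio was 2.92 to 3.09 without 1 library and 3.09 with TMM.

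DESeq2 called 10 members at stage 8 (2.15% of genes tested) and 9 for the mean of 4 stages (1.42%). It called 3 for the mean of stages 5, 6 and 8 (1.31%) and 2 for the change with stage (0.235%). The fit of all 24 columns, which enters the identical columns under both genotypes, called 2 at stage 8 (0.4%). It gave median log2 differences of -0.18 at stage 7, -0.11 for the mean of 4 stages, -0.18 for the step from stage 6 to 7 and -0.0097, in place of 0.23, for the step from stage 7 to 8. Without 1 library the counts ran from 0 to 26 at stage 8 and 0 to 12 for the mean of 4 stages. They ran from 0 to 7 for the mean of 3 and 0 to 4 for the change with stage. The highest counts came without mutant stage 8 replicate 3, where 7.88%, 1.88%, 1.95% and 0.455% of genes tested were called, in that order. The medians ran from -0.12 to -0.07 at stage 5, from -0.082 to 0.15 at stage 6, where the sign turned without wild-type replicate 2, from -0.25 to -0.11 at stage 8 and from -0.57 to -0.38 for the step from stage 6 to 7. With the members chosen without the wild-type stage 7 library, an alternative also chosen after seeing the data, the median was -0.40, in place of -0.46, for the step from stage 6 to 7. RLE size factors and no low-count filter called 0 members in every comparison. With the replicate number as a block, edgeR called 0 members in every comparison, and the median was 0.026, in place of -0.01, at stage 6 and -0.17 at stage 8. The labels do not say that replicate numbers pair libraries. At stages 5 and 8 same-numbered libraries deviated together weakly, with correlations of 0.021 to 0.054. At stage 6, with 2 libraries per group, deviations from the group mean mirror each other. Every pair there gave 0.080 or -0.080, and nothing is read from it. No stage 8 library correlated best with its own number, and differently numbered stage 8 libraries reached a correlation of 0.18. The contrasts of steps and the mean of 3 stages were chosen after seeing the data. Stage 7 was not fitted alone or without its libraries, since 1 library per genotype remains.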
